A study of Mus musculus with 9 samples.

Results

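The Interstitial and Sertoli sorts of the fetal mouse testis were compared across all genes, with 6 of the series' 9 libraries. Another sort of the series, labelled Leydig, entered the estimate of spread. All 3 sorts came from gonads of Sf1-eGFP mice at 12.5 dpc (days post coitum), a strain that carries a green fluorescent reporter named for Sf1, the transcription factor also called Nr5a1. Gonads were dissected with the mesonephros and sexed by their testis cords, and dissociated cells were stained for CD31 to remove germ and endothelial cells before sorting. How fluorescence was gated to part these sorts is not given in the sources available here. About 10 sorts on different days, each of 4 to 10 litters, were combined into a sample. Pools A and B were separate samples, and the third was made by mixing A with B. The titles do not say which library is the mix, and libraries named C were taken as the mix because A and B are named as the unmixed samples. Differences were therefore tested on A and B (n = 2 pools per population), and C served as a check. No mutation or treatment is named for any group, and all shared the reporter.

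Sertoli cells are the supporting cells of the testis. They enclose the germ cells in cords, begin to differentiate when Sry and then Sox9 are active, and secrete hormones and growth factors that act on neighbouring cells. The interstitium outside the cords holds mesenchymal progenitors, fetal Leydig cells, vessels, pericytes and blood cells. Sertoli-derived signals such as desert hedgehog and platelet-derived growth factor are received there by cells that express their receptors.

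RNA was read as stranded, ribosome-depleted total RNA, and the deposited values are reads per gene and lane, summed here over 4 lanes. The 6 libraries held 33123254 to 39244060 reads in genes. Levels are given in CPM, a unit that divides counts by a library's reads in genes, here with the TMM scaling of edgeR. A gene with 3 reads in a library stood at 0.0764 to 0.0906 CPM before that scaling, and this counting floor covers sampling error only. Of these reads, 13.79 to 18.23% were mitochondrial ribosomal RNA. Genes were then taken where pools A and B were at least 2-fold apart and the higher pool held at least 5 CPM. C lay between A and B for 27 of 31 such genes (87.1%) in Interstitial and for 26 of 26 (100%) in Sertoli. In pooled sorted cells, fewer cells of a type and less RNA per cell cannot be told apart. Spread between pools is what the p-values measure, since nothing else was replicated.

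The 2 sorts differed over most of the transcriptome. Of 18048 genes tested, 11155 (61.8%) passed an adjusted p of 0.05 in edgeR's quasi-likelihood test with Benjamini-Hochberg adjustment. Of all genes tested, 32.7% (5901 genes) were higher in Interstitial and 29.1% (5254 genes) were higher in Sertoli. At least 4-fold differences were found for 1542 genes higher in Interstitial (8.54%) and 922 genes higher in Sertoli (5.11%). The C libraries differed in the same direction for 5875 of the 5901 genes (99.6%) and for 5228 of the 5254 genes (99.5%). Since C was taken as a mix of A and B, this agreement was largely fixed in advance and is no independent support. For the same reason, C adds little below where libraries are said not to overlap. All differences below are log2 values of Interstitial minus Sertoli, so a negative value is a gene higher in Sertoli. The median over all genes tested was 0.04. Of the calls, 52.9% were higher in Interstitial. Scaling by library size alone moved the median by 0.168 towards Interstitial and this share to 65.2%, so the balance between the directions depended on the scaling.

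The authors' deposited table of this comparison lists 3512 genes with a log2 fold of at least 1. Of those in the authors' deposited table, 1960 were higher in Interstitial and 1552 in Sertoli. Every gene of the authors' deposited table had the same direction here, and 3506 (99.8%) passed the test used here. Of 5028 genes called here with at least a 2-fold difference, 3344 (66.5%) were in the authors' deposited table.

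**Figure D1:**
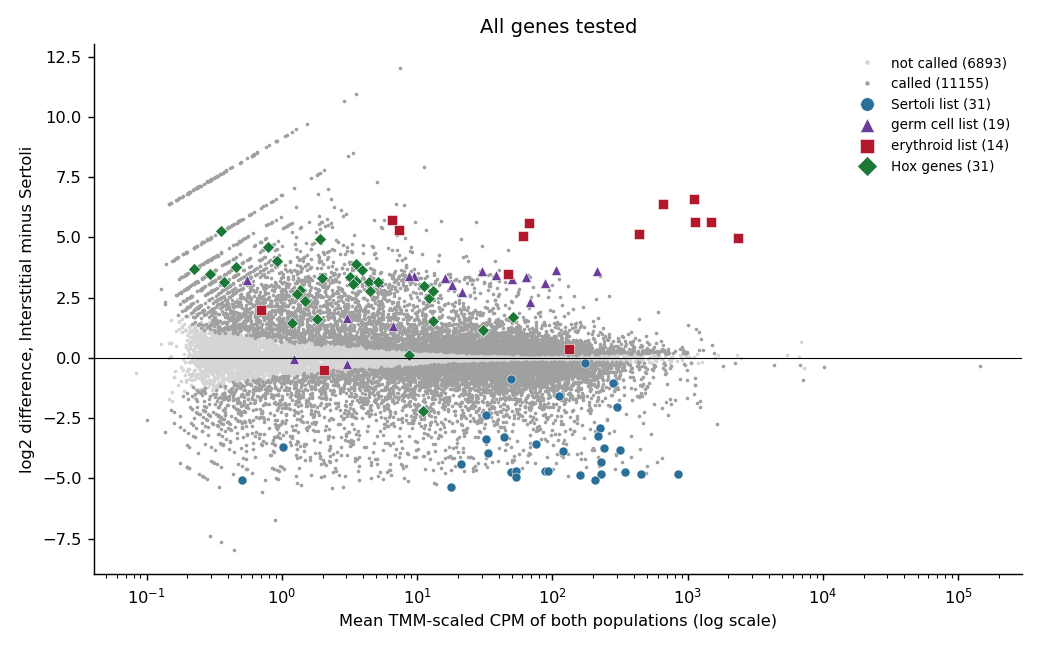
Log2 difference (Interstitial minus Sertoli) against the mean TMM-scaled CPM of both populations (log axis) for all 18048 genes tested, with 11155 called genes in dark grey and 4 lists marked. The Sertoli list lies below 0 and the erythroid list lies mostly above 4. Streaks at the upper left are genes with 0 to a few reads in Sertoli, whose fitted difference depends on the prior count.

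Genes listed as Sertoli markers were higher in the Sertoli sort. The Sertoli list, like the other lists, was chosen with earlier results of these data known. Its count is therefore a description and no independent support. Of the Sertoli list, 0 of 31 tested genes were higher in Interstitial and 30 were higher in Sertoli (0 and 96.8%), with a median log2 difference of -3.96. Of the tested members, only Etv5, an ETS factor induced by growth factor signalling, did not pass the test (log2 difference -0.21, SE 0.10, adjusted p = 0.112). The list summed to 933 to 1033 CPM in the Interstitial libraries and 8870 to 9381 CPM in the Sertoli libraries. Among the transcription factors, Sox9, which drives Sertoli differentiation (ENSMUSG00000000567, chr11:112782224-112787760, GRCm38), had 119, 161 and 133 CPM in Sertoli A, B and C and 10.2, 13.4 and 11.4 CPM in Interstitial A, B and C (log2 difference -3.57, SE 0.17, adjusted p = 4.4e-07). Every Sertoli library lay above every Interstitial library. Its relative Sox8 had 64.5, 60.5 and 61.1 CPM in the Sertoli libraries and 3.84, 4.18 and 3.59 CPM in the Interstitial libraries (log2 difference -3.96, SE 0.09, adjusted p = 1.24e-08). Nr5a1, the SF1 gene that names the reporter, had 396, 398 and 375 CPM in the Sertoli libraries and 51.1, 55.3 and 45.3 CPM in the Interstitial libraries (log2 difference -2.90, SE 0.08, adjusted p = 1.86e-08). The Interstitial libraries thus held Nr5a1 reads well above the counting floor. Gata4 (-2.02), Wt1 (-1.05) and Dmrt1 (-0.88), factors shared with other gonadal cells, differed by less.

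Secreted products and enzymes were among the members higher in Sertoli. Amh, the hormone that removes the Müllerian ducts (ENSMUSG00000035262, chr10:80805243-80807648), had 1594, 1683 and 1495 CPM in Sertoli A, B and C and 53.7, 64.1 and 50.1 CPM in Interstitial A, B and C, or 1638 ± 62.6 CPM (SD, n = 2) in Sertoli and 58.9 ± 7.34 CPM (SD, n = 2) in Interstitial (log2 difference -4.80, SE 0.11, adjusted p = 8.68e-09). Dhh, the hedgehog ligand of the testis (chr15:98891152-98898540), had 441, 438 and 408 CPM in Sertoli A, B and C and 14.4, 17.2 and 15.6 CPM in Interstitial A, B and C (log2 difference -4.80, SE 0.09, adjusted p = 6.34e-09). For both genes all Sertoli libraries lay far above all Interstitial libraries. Cst9, a cystatin-type protease inhibitor, had 426, 377 and 387 CPM in the Sertoli libraries and 11.4, 12.8 and 12.5 CPM in the Interstitial libraries and was 33.3-fold higher in Sertoli (log2 difference -5.06, SE 0.09, adjusted p = 6.34e-09). Ptgds, which makes prostaglandin D, had 325, 294 and 304 CPM in the Sertoli libraries and 9.14, 12.4 and 10.6 CPM in the Interstitial libraries (log2 difference -4.85, SE 0.13, adjusted p = 2.28e-08). Inhbb, the activin and inhibin beta B subunit, differed by -4.33, Kitl, the ligand of the germ cell receptor Kit, by -3.80, and Gdnf, a germ cell growth factor, by -3.29. Hsd17b3, the enzyme that makes testosterone from androstenedione, had 112, 98.1 and 108 CPM in the Sertoli libraries and 3.08, 3.83 and 3.79 CPM in the Interstitial libraries (log2 difference -4.93, SE 0.12, adjusted p = 1.37e-08). Aard was 26.4-fold, Mro 25.6-fold and the calcium-binding Tesc 25.9-fold higher in Sertoli.

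**Figure D2:**
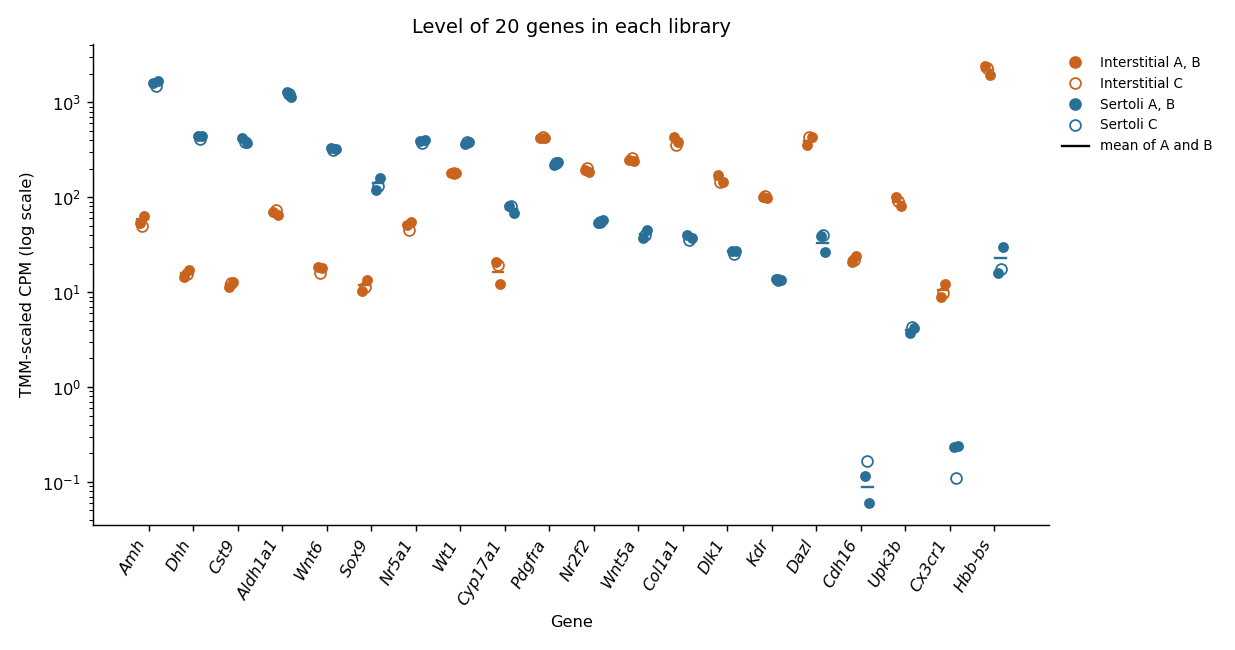
TMM-scaled CPM (log axis) of 20 genes in each library. Filled points are pools A and B, open circles are C and bars are the mean of A and B. Genes on the left from Amh to Cyp17a1 are higher in all 3 Sertoli libraries and genes from Pdgfra to Hbb-bs are higher in all 3 Interstitial libraries.

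The 12 largest differences towards Sertoli, among genes with a mean of at least 5 CPM and no overlap between libraries, ran from -5.36 for Ctrb1 to -4.93 for Hsd17b3, with Gm2302 next. Ctrb1, a chymotrypsinogen, had 36.3, 32.7 and 30.7 CPM in the Sertoli libraries and 0.709, 0.979 and 0.96 CPM in the Interstitial libraries (log2 difference -5.36, SE 0.16, adjusted p = 2.87e-08). Pnmt, the enzyme that makes adrenaline from noradrenaline, had 4.74, 6.36 and 4.81 CPM in the Sertoli libraries and 0.122, 0.144 and 0.0984 CPM in the Interstitial libraries (log2 difference -5.35, SE 0.31, adjusted p = 1.44e-06). Acsm3, an acyl-CoA synthetase, had 26, 27.5 and 27.8 CPM in the Sertoli libraries and 0.635, 0.777 and 0.91 CPM in the Interstitial libraries (log2 difference -5.25, SE 0.17, adjusted p = 4.13e-08). These 3 genes stood near or below 1 CPM in every Interstitial library. Cnga1, a cyclic nucleotide-gated channel subunit, differed by -5.20 and by -5.81 without Interstitial B. The other members were Rgn (-5.11), Miox (-5.06), Cst9, Gm5868 (-5.02), the carboxylate carrier Slc13a2 (-5.00) and the phosphate carrier Slc34a2 (-4.97). By amount, Malat1, a nuclear long non-coding RNA, led with 8953, 9552 and 10395 CPM in the Sertoli libraries and 5005, 4812 and 5098 CPM in the Interstitial libraries (log2 difference -0.91, SE 0.08, adjusted p = 1.48e-05). Col18a1, a basement membrane collagen, had 2652, 3064 and 2653 CPM in the Sertoli libraries and 409, 453 and 392 CPM in the Interstitial libraries (log2 difference -2.73, SE 0.09, adjusted p = 7.06e-08). Sparc (-2.03), the lipid desaturase Scd2 (-1.78), the giant cadherin Fat1 (-1.87) and the glutathione transferase Gstm2 (-4.32) completed that group with Amh and Aldh1a1.

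Steroid-making genes of the fetal Leydig list were higher in the Sertoli sort than in the Interstitial sort. In that list, 2 of 22 tested genes were higher in Interstitial and 17 were higher in Sertoli (9.09 and 77.3%), with a median log2 difference of -1.95. Star, which brings cholesterol into mitochondria, had 52, 48.4 and 49.3 CPM in the Sertoli libraries and 12, 10.1 and 12 CPM in the Interstitial libraries (log2 difference -2.18, SE 0.20, adjusted p = 2.57e-05). Cyp17a1, the enzyme on the path to androgens, had 80.8, 68.3 and 80.5 CPM in the Sertoli libraries and 20.7, 12.1 and 19.2 CPM in the Interstitial libraries (log2 difference -2.18, SE 0.35, adjusted p = 0.000699). Hsd3b1 had 115, 93.4 and 106 CPM in the Sertoli libraries and 20.8, 14.1 and 20.6 CPM in the Interstitial libraries (log2 difference -2.57, SE 0.26, adjusted p = 4.4e-05). The libraries did not overlap for any of the 3. Cyp11a1, the side-chain cleavage enzyme, differed by -2.71, and by -3.40 without Interstitial A. Fdxr, which feeds electrons to mitochondrial P450 enzymes, had 254, 251 and 237 CPM in the Sertoli libraries and 27.9, 28.7 and 27.4 CPM in the Interstitial libraries (log2 difference -3.16, SE 0.09, adjusted p = 3.09e-08), and the inhibin alpha subunit Inha differed by -3.54. The sort labelled Leydig held a mean of 110 CPM of Cyp17a1 and 57 CPM of Star. The whole list, however, summed to 926 to 1302 CPM in the Leydig libraries and to 1313 to 1389 CPM in the Sertoli libraries. In the Interstitial libraries it summed to 478 to 521 CPM.

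Hsd3b6 and Dlk1 were the 2 members higher in Interstitial. Hsd3b6, another hydroxysteroid dehydrogenase gene, had 17.1, 28.6 and 20.6 CPM in the Interstitial libraries and 0.173, 0.994 and 0.387 CPM in the Sertoli libraries (log2 difference 5.30, SE 0.50, adjusted p = 2.88e-05), with 4.51 without Sertoli A and 7.00 without Sertoli B. Hsd3b1 and Hsd3b6 are close copies. The counting kept a separate class for reads without a unique alignment, so reads shared between them may be missing and both values are uncertain. Dlk1, a Notch-like membrane protein of progenitor cells, had 170, 145 and 144 CPM in the Interstitial libraries and 26.9, 27 and 25 CPM in the Sertoli libraries (log2 difference 2.55, SE 0.11, adjusted p = 2.88e-07).

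Mesenchymal regulators were higher in Interstitial, by smaller factors. In the interstitial progenitor list, 19 of 24 tested genes were higher in Interstitial and 1 were higher in Sertoli (79.2 and 4.17%), with a median log2 difference of 1.07. Nr2f2, the nuclear receptor COUP-TFII, had 192, 186 and 204 CPM in Interstitial A, B and C and 53.9, 57.7 and 55.2 CPM in Sertoli A, B and C (log2 difference 1.76, SE 0.07, adjusted p = 1.06e-07). Tcf21, a bHLH factor of gonadal mesenchyme, had 72.8, 64.2 and 65.4 CPM in the Interstitial libraries and 22.9, 21.5 and 21.4 CPM in the Sertoli libraries (log2 difference 1.62, SE 0.09, adjusted p = 1.29e-06). The populations did not overlap for either gene, but the Sertoli libraries held both well above the counting floor. Hand2 (4.43), Meis2 (2.66), Wnt5a (2.58) and Nr2f1 (2.04) showed larger differences. Pdgfra, the receptor that marks the mesenchyme, had 424, 424 and 435 CPM in the Interstitial libraries and 221, 233 and 230 CPM in the Sertoli libraries (log2 difference 0.90, SE 0.07, adjusted p = 6.93e-06). Jag1, a Notch ligand, was the 1 member higher in Sertoli (-0.62). Hes1, a Notch target, ran from 47.2 to 98.1 CPM in Interstitial and from 50.7 to 146 CPM in Sertoli, so the pools of both populations overlapped (log2 difference -0.44, SE 0.54, adjusted p = 0.507).

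CD31 staining had been used to remove germ and endothelial cells, and vessel genes were higher in Interstitial. In the endothelial list, 19 of 20 tested genes were higher in Interstitial and 0 were higher in Sertoli (95 and 0%), with a median log2 difference of 2.05. Pecam1, which encodes CD31, had 67.4, 72.2 and 67.6 CPM in Interstitial A, B and C and 13.3, 9.07 and 11 CPM in Sertoli A, B and C (log2 difference 2.64, SE 0.21, adjusted p = 9.49e-06). Kdr, the main VEGF receptor, had 101, 97.4 and 102 CPM in the Interstitial libraries and 13.9, 13.3 and 13.5 CPM in the Sertoli libraries (log2 difference 2.87, SE 0.09, adjusted p = 3.07e-08). Emcn had the largest difference of the list (3.16). Sox18 was the only member that did not pass (log2 difference -0.25, SE 0.24, adjusted p = 0.406). The list summed to 344 to 414 CPM in the Interstitial libraries and 81.7 to 87.1 CPM in the Sertoli libraries, and no member was at 0 reads in the Sertoli libraries. In the smooth muscle and pericyte list, 7 of 14 tested genes were higher in Interstitial and 3 were higher in Sertoli (50 and 21.4%), with a median log2 difference of 1.00. The pericyte channel gene Kcnj8 (4.80) and the pericyte regulator Rgs5 (2.86) led, while Cspg4 (-0.86), Mcam (-0.75) and Myh11 (-0.51) were higher in Sertoli. Myh11 was not called without Interstitial A (-0.42) or with lanes L003 and L004 (-0.37). Tagln, a smooth muscle actin-binding protein, passed at 1.17, but the call was lost without Sertoli A (0.57), Interstitial A (1.42) or Interstitial B (0.99), and the value was 2.15 without Sertoli B.

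Red cell transcripts were the most abundant difference towards Interstitial. In the erythroid list, 13 of 14 tested genes were higher in Interstitial and 0 were higher in Sertoli (92.9 and 0%), with a median log2 difference of 5.23, and the list summed to 14096 to 14805 CPM in the Interstitial libraries and 282 to 607 CPM in the Sertoli libraries. Hbb-bs, an adult beta globin, had 2430, 1962 and 2320 CPM in Interstitial A, B and C and 16, 29.9 and 17.4 CPM in Sertoli A, B and C (log2 difference 6.58, SE 0.49, adjusted p = 6.67e-06). The embryonic globin Hbb-y had 4101, 5092 and 4409 CPM in the Interstitial libraries and 66.7, 224 and 115 CPM in the Sertoli libraries (log2 difference 4.98, SE 0.71, adjusted p = 0.00033). Hba-a1 and Hba-a2, near-identical alpha globin copies that can share reads, differed by 5.64 and 5.64. Sertoli B held more globin reads than Sertoli A, and without Sertoli B the difference was 6.10 for Hbb-y, 6.61 for Hba-a1 and 6.54 for Hba-a2. Without Sertoli A it was 4.35 for Hbb-y. Slc4a1, the red cell anion exchanger, had 99.1, 162 and 112 CPM in the Interstitial libraries and 1.39, 3.98 and 1.63 CPM in the Sertoli libraries (log2 difference 5.61, SE 0.45, adjusted p = 9.62e-06), and 6.55 without Sertoli B. Klf1, an erythroid transcription factor, did not pass (log2 difference -0.51, SE 0.26, adjusted p = 0.117). The globins Hbb-y, Hba-a1, Hba-a2, Hbb-bs and Hbb-bt also took the 5 largest differences in mean CPM of all genes higher in Interstitial. H19, Col3a1 and Hsp90aa1 followed.

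White cell markers were higher in Interstitial. In the macrophage and leukocyte list, 17 of 17 tested genes were higher in Interstitial and 0 were higher in Sertoli (100 and 0%), with a median log2 difference of 5.45. Cd68, a lysosomal protein, had the smallest difference (0.53) and was not called without Sertoli A (0.35), Interstitial A (0.64) or Interstitial B (0.54), or by DESeq2 (0.51). The list summed to 91.4 to 160 CPM in the Interstitial libraries and 9.59 to 10.4 CPM in the Sertoli libraries, and S100a9 was its 1 member at 0 reads in all Sertoli libraries. The list's median was 5.42 with its 2 genes at 0 reads in Sertoli A and B set at their lower bound. Cx3cr1, a macrophage chemokine receptor, had 8.87, 12.1 and 9.69 CPM in the Interstitial libraries and 0.231, 0.241 and 0.111 CPM in the Sertoli libraries (log2 difference 5.45, SE 0.36, adjusted p = 3.3e-06). Csf1r, the macrophage growth factor receptor, had 13.6, 21.4 and 15.3 CPM in the Interstitial libraries and 0.693, 0.964 and 0.83 CPM in the Sertoli libraries (log2 difference 4.39, SE 0.37, adjusted p = 1.47e-05). S100a9, a neutrophil calcium-binding protein, had 6.48, 23.2 and 12.2 CPM in the Interstitial libraries and 0, 0 and 0 CPM in the Sertoli libraries. It had 1072 reads in Interstitial A and B and 0 in Sertoli A and B, which makes it at least 320-fold higher in Interstitial against a floor of 3 reads over both pools. Ltf, which encodes lactoferrin, was at least 152-fold higher by the same rule, with 2.22, 12 and 4.8 CPM in Interstitial A, B and C. For both neutrophil genes Interstitial B held the highest level. Ptprc, the leukocyte antigen CD45, had 458 reads against 1, a ratio of 411 (95% exact interval 73.3 to 16253, counting error only). Outside the list, BC100530, a stefin-like gene, had 481 reads against 1, a ratio of 431 (95% exact interval 77 to 17067). The 12 largest differences towards Interstitial, by the same rule as for Sertoli, included S100a9, Ltf, BC100530, Ptprc, Cdh16, S100a8, Hbb-bs, Hbb-bt, Kif12, Pkhd1 and Mpo. S100a8, the partner of S100a9, had 4.5, 15.6 and 9.18 CPM in the Interstitial libraries and 0.116, 0 and 0.0277 CPM in the Sertoli libraries (log2 difference 7.32, SE 1.07, adjusted p = 0.000368), with 11.46 without Sertoli A and 6.23 without Interstitial B. Mpo, a granule enzyme of neutrophils, differed by 6.14, and by 7.33 without Sertoli A and 5.51 without Sertoli B.

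Germ cell genes were higher in Interstitial too, and by a narrow range of factors. In the germ cell list, 17 of 19 tested genes were higher in Interstitial and 0 were higher in Sertoli (89.5 and 0%), with a median log2 difference of 3.23. The list summed to 1260 to 1444 CPM in the Interstitial libraries and 120 to 174 CPM in the Sertoli libraries. Dazl, an RNA-binding protein of germ cells, had 357, 428 and 427 CPM in the Interstitial libraries and 38.8, 26.5 and 39.8 CPM in the Sertoli libraries (log2 difference 3.59, SE 0.56, adjusted p = 0.00054). Pou5f1, the pluripotency factor OCT4, had 112, 121 and 115 CPM in the Interstitial libraries and 12.9, 9.31 and 10.8 CPM in the Sertoli libraries (log2 difference 3.38, SE 0.52, adjusted p = 0.000499). Ddx4, an RNA helicase of germ cells, had 90.4, 92.4 and 99.5 CPM in the Interstitial libraries and 11.6, 7.44 and 10.7 CPM in the Sertoli libraries (log2 difference 3.26, SE 0.46, adjusted p = 0.000323). All Interstitial libraries lay above all Sertoli libraries for each of them. Dppa3 (3.63), Sox2 (3.60), Mael (3.39), Prdm1 (3.31) and Nanog (3.02) had similar differences. Kit differed by 2.33, and Rec8 (log2 difference -0.25, SE 0.18, adjusted p = 0.262) and Taf7l (log2 difference -0.06, SE 0.28, adjusted p = 0.859) did not pass. No member tested was at 0 in the Sertoli libraries.

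Genes listed as markers of mesonephric tubules and of mesothelium gave some of the largest ratios, and the source of their reads was not tested. In the mesonephric tubule list, 14 of 16 tested genes were higher in Interstitial and 2 were higher in Sertoli (87.5 and 12.5%), with a median log2 difference of 2.79, and the list summed to 317 to 359 CPM in the Interstitial libraries and 163 to 165 CPM in the Sertoli libraries. Cdh16, a kidney-type cadherin, had 20.6, 23.9 and 21.8 CPM in Interstitial A, B and C and 0.116, 0.0603 and 0.166 CPM in Sertoli A, B and C (log2 difference 7.92, SE 0.36, adjusted p = 3.01e-07). Kif12 and Pkhd1 are not in the list and were named for their large differences. Kif12, a kinesin found in kidney tubules, had 10.7, 16.9 and 12.1 CPM in the Interstitial libraries and 0.144, 0.181 and 0.221 CPM in the Sertoli libraries (log2 difference 6.37, SE 0.45, adjusted p = 4.5e-06). Pkhd1, the gene mutated in recessive polycystic kidney disease, differed by 6.34, and by 6.99 without Sertoli A. Of the list, Pax8 (1.07), Emx2 (0.97) and Krt18 (0.32) differed less, and Krt18 was not called without Sertoli A (0.30). Krt8 (-1.26) and Bmp7 (-0.37) were the members higher in Sertoli, and Bmp7 was not called without Sertoli B (-0.28) or Interstitial A (-0.23), with scaling by library size alone (-0.20) or with lanes L001 and L002 (-0.25). In each of these 1 member was higher in Sertoli. In the mesothelial list, 11 of 13 tested genes were higher in Interstitial and 2 were higher in Sertoli (84.6 and 15.4%), with a median log2 difference of 4.01. Upk3b, a uroplakin of mesothelium, had 99.6, 80.6 and 90.8 CPM in the Interstitial libraries and 3.73, 4.22 and 4.29 CPM in the Sertoli libraries (log2 difference 4.50, SE 0.14, adjusted p = 3.89e-08). Bnc1 (4.01), Lrrn4 (4.01) and Krt19 (4.97) were also higher in Interstitial. Wt1 (-1.05) and Lgals7 (-3.37) were the 2 members higher in Sertoli.

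**Figure D3:**
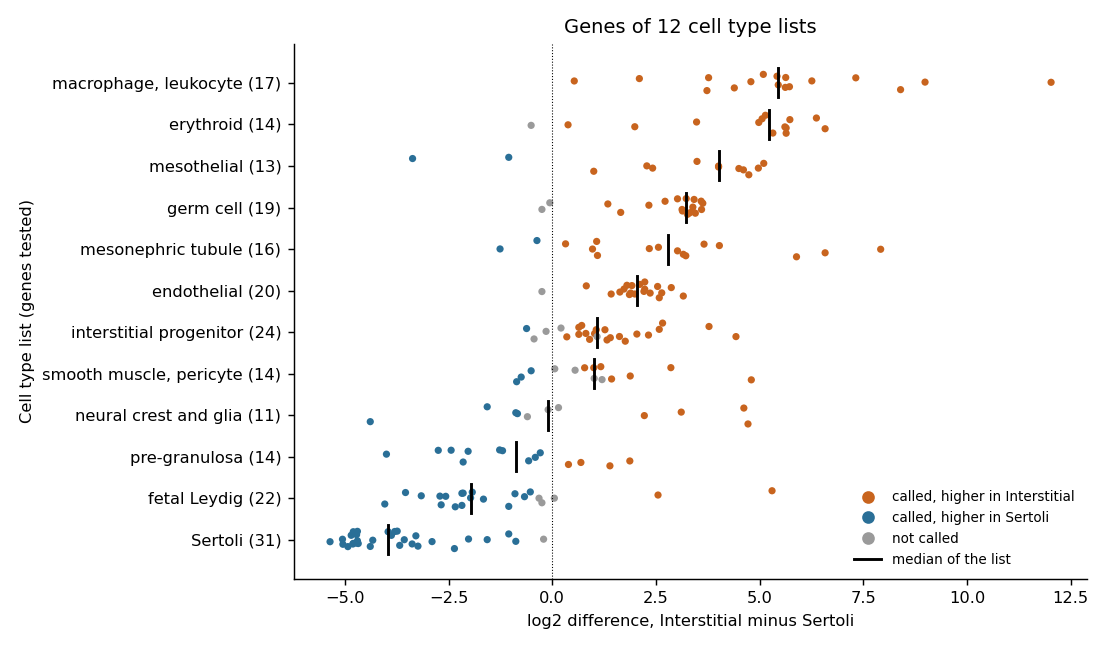
Log2 difference (Interstitial minus Sertoli) of each tested gene in 12 cell type lists, with the number of genes in brackets, the list median as a bar and genes that did not pass in grey. The medians of the Sertoli and fetal Leydig lists (-3.96 and -1.95) lie to the left of 0 and those of the erythroid and macrophage lists (5.23 and 5.45) to the right. Genes with 0 reads in Sertoli are drawn at their fitted value, which depends on the prior count.

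Lists of cell types related to both sorts were mixed. In the pre-granulosa list, 4 of 14 tested genes were higher in Interstitial and 10 were higher in Sertoli (28.6 and 71.4%), with a median log2 difference of -0.89. With scaling by library size alone, 6 were higher in Sertoli. Lgr5, a receptor for R-spondins, had 101, 113 and 106 CPM in the Sertoli libraries and 6.65, 6.8 and 6.23 CPM in the Interstitial libraries (log2 difference -4.00, SE 0.09, adjusted p = 8.68e-09). Fst, the activin antagonist follistatin, had 15.9, 6.45 and 12.1 CPM in the Sertoli libraries and 1.71, 1.61 and 2.29 CPM in the Interstitial libraries (log2 difference -2.75, SE 0.40, adjusted p = 0.000342), and -1.96 without Sertoli A. Lef1 (1.87) and Axin2 (1.39), targets of canonical WNT signalling, were higher in Interstitial. Foxl2, the factor that maintains granulosa identity, stayed below 1 CPM in all 6 libraries and was called higher in Sertoli (-2.03). Its call was lost by DESeq2 (-2.07) and without Sertoli A (-1.74) or Interstitial A (-1.85). In the neural crest and glia list, 4 of 11 tested genes were higher in Interstitial and 4 were higher in Sertoli (36.4 and 36.4%), with a median log2 difference of -0.10. Sox10 had 41.5, 38.8 and 36.6 CPM in the Sertoli libraries and 1.49, 2.39 and 1.23 CPM in the Interstitial libraries (log2 difference -4.39, SE 0.19, adjusted p = 2.06e-07). Erbb3 (-1.57) and Tubb3 (-0.84) were higher in Sertoli too. Both Sox10 and Erbb3 are also members of the Sertoli list. Stmn2 (4.72), Th (4.62), Gap43 (3.11) and Phox2a (2.22) were the members higher in Interstitial. Phox2a was not called without Sertoli A (2.06), Sertoli B (2.38) or Interstitial B (1.48), or by DESeq2 (2.24) or limma voom (1.98).

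Short motifs were counted in the 250 bases before each gene's start (RefSeq, GRCm38.p6). A window was matched by symbol for 12419 genes tested, 632 of the genes at least 4-fold higher in Sertoli and 1085 of those at least 4-fold higher in Interstitial. AAGGTCA, a site bound by SF1, was present on either strand in 36 windows of the Sertoli group (5.7%), 39 of the Interstitial group (3.59%) and 3.03% of all windows tested. ACAAT, a core of SOX sites, was present in 18.7% of the Sertoli group, 24.1% of the Interstitial group and 18.5% of all windows tested, and the longer ACAATGG, which contains it, in 3.01, 2.49 and 1.73%. For AGATAA, which GATA factors bind, the shares in the same order were 8.07, 8.57 and 6.1%. They were 16.5, 14.6 and 12.2% for the E-box CAGCTG. For TATAAA they were 11.6, 10.4 and 6.78%. The groups differed in base composition, with a median GC content of 58, 55.2 and 59.6%. Every motif was at least as frequent in both groups as among all windows tested. ACAAT and AGATAA were more frequent in the Interstitial group than in the Sertoli group. Among all 27025 windows, of genes tested or not, the shares were 4.05% for AAGGTCA, 28.3% for ACAAT and 3.07% for ACAATGG. They were 10.3% for AGATAA, 12.8% for CAGCTG and 13% for TATAAA, with a median GC content of 52%. Against that background only CAGCTG was more frequent in both groups, and no test was made. Below are the 4 windows of the Sertoli group with the highest Sertoli CPM among those with AAGGTCA, shown because they share this match. Capitals mark AAGGTCA or its reverse complement, and each window is given 5′ to 3′ towards the gene.
Amhr2, chr15:102445117-102445366, + strand: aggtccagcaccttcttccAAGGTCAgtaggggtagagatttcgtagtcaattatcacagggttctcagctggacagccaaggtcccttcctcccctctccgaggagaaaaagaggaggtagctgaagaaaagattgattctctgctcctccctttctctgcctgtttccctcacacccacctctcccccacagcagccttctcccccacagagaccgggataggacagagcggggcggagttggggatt
Kcnh1, chr1:192190527-192190776, + strand: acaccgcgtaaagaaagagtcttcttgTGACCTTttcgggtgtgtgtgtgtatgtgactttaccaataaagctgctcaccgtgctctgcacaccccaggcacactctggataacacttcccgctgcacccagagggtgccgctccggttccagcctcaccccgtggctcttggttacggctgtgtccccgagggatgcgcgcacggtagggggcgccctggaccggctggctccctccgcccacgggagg
Cst8, chr2:148798589-148798838, + strand: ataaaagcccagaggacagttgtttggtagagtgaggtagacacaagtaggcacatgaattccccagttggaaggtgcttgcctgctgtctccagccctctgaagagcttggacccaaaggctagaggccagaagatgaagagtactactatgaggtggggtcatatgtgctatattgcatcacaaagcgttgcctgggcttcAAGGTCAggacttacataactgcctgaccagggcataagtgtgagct
Col9a1, chr1:24177360-24177609, + strand: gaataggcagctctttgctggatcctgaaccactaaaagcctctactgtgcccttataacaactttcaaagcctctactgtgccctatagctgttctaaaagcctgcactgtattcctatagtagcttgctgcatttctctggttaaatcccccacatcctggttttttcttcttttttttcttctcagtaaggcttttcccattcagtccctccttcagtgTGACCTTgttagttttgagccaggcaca

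Amhr2, the receptor for AMH, had 232, 226 and 213 CPM in the Sertoli libraries and 41.7, 41.8 and 39 CPM in the Interstitial libraries (log2 difference -2.46, SE 0.06, adjusted p = 1.76e-08), and its match begins 231 bases before the start. Kcnh1, a potassium channel, differed by -4.35, Cst8, a cystatin, by -4.72 and Col9a1, a collagen chain, by -3.59, with matches at 223, 47 and 28 bases before the start. Of 10 called erythroid genes with a window, 3 held AGATAA or its reverse complement, and they are shown with the match in capitals because these genes differed together.
Hbb-bs, chr7:103827929-103828178, - strand: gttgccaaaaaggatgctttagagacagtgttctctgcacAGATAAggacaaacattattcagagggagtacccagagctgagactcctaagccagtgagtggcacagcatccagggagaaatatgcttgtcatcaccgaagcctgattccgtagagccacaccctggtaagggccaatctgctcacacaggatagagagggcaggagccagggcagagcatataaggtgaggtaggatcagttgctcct
Alas2, chrX:150547167-150547416, + strand: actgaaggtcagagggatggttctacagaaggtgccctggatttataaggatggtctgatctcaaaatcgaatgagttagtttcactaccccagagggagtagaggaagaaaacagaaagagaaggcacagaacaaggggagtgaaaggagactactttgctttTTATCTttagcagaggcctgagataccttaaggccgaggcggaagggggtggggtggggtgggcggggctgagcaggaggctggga
Epb42, chr2:121036878-121037127, - strand: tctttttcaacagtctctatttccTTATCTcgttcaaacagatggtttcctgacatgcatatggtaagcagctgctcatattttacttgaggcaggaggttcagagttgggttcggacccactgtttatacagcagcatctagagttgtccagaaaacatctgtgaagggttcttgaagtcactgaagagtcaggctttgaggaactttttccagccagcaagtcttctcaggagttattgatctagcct

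Alas2, the first enzyme of haem synthesis in red cells, differed by 3.48, and Epb42, a red cell membrane protein, by 5.32, or 6.11 without Sertoli B. The matches begin 210 bases before the start in Hbb-bs, 86 in Alas2 and 226 in Epb42. Each match is a run of letters and was not tested as a binding site.

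Signalling lists held members higher in either sort. Of all genes tested, 32.7% were higher in Interstitial and 29.1% in Sertoli, and the lists' shares were not tested against these. In the hedgehog list, 7 of 16 tested genes were higher in Interstitial and 6 were higher in Sertoli (43.8 and 37.5%), with a median log2 difference of 0.07. The ligand Dhh was the member furthest towards Sertoli. The co-receptor Gas1, which helps hedgehog ligands bind, had 131, 136 and 132 CPM in the Interstitial libraries and 20.7, 23.1 and 20.5 CPM in the Sertoli libraries (log2 difference 2.61, SE 0.08, adjusted p = 3.65e-08), and the co-receptor Boc differed by 1.21. The transcription factors Gli1 (0.81), Gli2 (0.71) and Gli3 (0.74) were higher in Interstitial. Ptch1, both receptor and target of the pathway, had 202, 238 and 207 CPM in the Sertoli libraries and 114, 117 and 108 CPM in the Interstitial libraries (log2 difference -0.93, SE 0.08, adjusted p = 1.89e-05) and was higher in Sertoli, as was the decoy receptor Hhip (-1.30). The signal transducer Smo did not pass (log2 difference 0.10, SE 0.08, adjusted p = 0.32).

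In the PDGF, VEGF and angiopoietin list, 11 of 18 tested genes were higher in Interstitial and 1 were higher in Sertoli (61.1 and 5.56%), with a median log2 difference of 1.03. Pdgfa, a ligand, was the 1 member higher in Sertoli, with 74.9, 75.4 and 74.6 CPM in the Sertoli libraries and 27.8, 30.2 and 28.3 CPM in the Interstitial libraries (log2 difference -1.38, SE 0.07, adjusted p = 6.92e-07). Its receptor Pdgfra and the related Pdgfrb (1.06) were higher in Interstitial, as were the ligands Pdgfc (1.41) and Pdgfd (1.15). Angpt1, a ligand of the vessel receptor Tek, differed by 3.16 and Tek by 2.11. Vegfa did not pass (log2 difference -0.21, SE 0.09, adjusted p = 0.0805). The endothelial list moved the same way as these receptors, but Flt1, Kdr, Flt4 and Tek are members of both lists. Its part in the result was not tested.

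In the retinoic acid list, 11 of 17 tested genes were higher in Interstitial and 3 were higher in Sertoli (64.7 and 17.6%), with a median log2 difference of 0.94. Aldh1a1, which makes retinoic acid, had 1279, 1148 and 1219 CPM in Sertoli A, B and C and 70, 65.2 and 74.2 CPM in Interstitial A, B and C (log2 difference -4.16, SE 0.10, adjusted p = 1.29e-08). Cyp26b1, which breaks it down and keeps male germ cells from entering meiosis, had 415, 479 and 422 CPM in the Sertoli libraries and 32.8, 34.2 and 31.1 CPM in the Interstitial libraries (log2 difference -3.74, SE 0.09, adjusted p = 1.3e-08). Both enzymes were therefore higher in Sertoli. The other synthesis enzyme Aldh1a2 had 146, 125 and 141 CPM in the Interstitial libraries and 54.8, 50.7 and 52.9 CPM in the Sertoli libraries (log2 difference 1.37, SE 0.10, adjusted p = 5.09e-06), and the receptor Rarb had 13.3, 9.9 and 13.2 CPM in the Interstitial libraries and 0.491, 0.482 and 0.747 CPM in the Sertoli libraries (log2 difference 4.57, SE 0.24, adjusted p = 7.14e-07). The receptor Rarg (2.56) and the binding proteins Crabp1 (3.88) and Crabp2 (2.74) were higher in Interstitial, whereas the receptor Rara (-0.68) was higher in Sertoli.

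**Figure D4:**
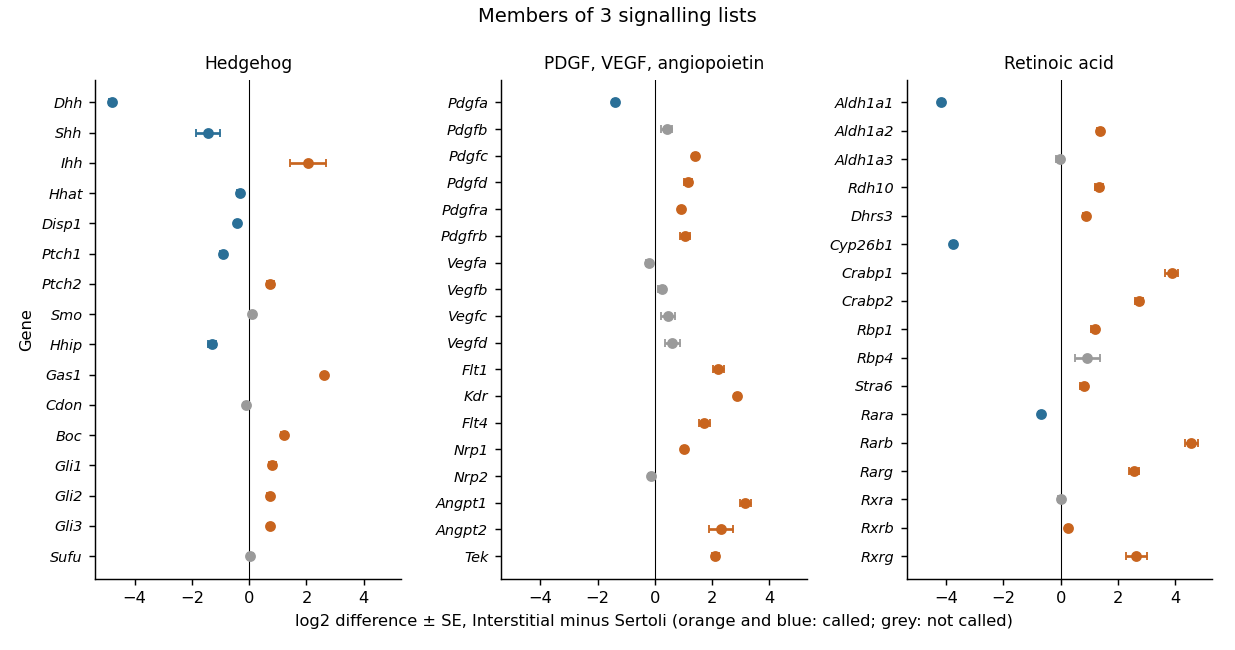
Log2 difference ± SE (Interstitial minus Sertoli) of each tested member of the hedgehog, PDGF, VEGF and angiopoietin, and retinoic acid lists. Dhh, Pdgfa, Aldh1a1 and Cyp26b1 lie to the left of 0, and Gas1, Angpt1, Rarb and Crabp1 lie to the right.

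In the WNT list, 21 of 32 tested genes were higher in Interstitial and 9 were higher in Sertoli (65.6 and 28.1%), with a median log2 difference of 0.89. Among ligands, Wnt6 had 331, 325 and 315 CPM in the Sertoli libraries and 18.2, 18 and 16 CPM in the Interstitial libraries (log2 difference -4.18, SE 0.07, adjusted p = 6.34e-09), and Wnt5a had 248, 243 and 262 CPM in the Interstitial libraries and 36.9, 45.6 and 40.5 CPM in the Sertoli libraries (log2 difference 2.58, SE 0.11, adjusted p = 1.7e-07). Wnt2b (4.26) and the R-spondin Rspo3 (4.43) were higher in Interstitial. Of the inhibitors, Sfrp2 (3.37) and Dkk1 (2.17) were higher in Interstitial and Wif1 (-2.42) and Nkd2 (-2.51) in Sertoli. The targets Lef1 and Axin2 named above and Nkd1 (1.99) were higher in Interstitial, whereas Znrf3 (-1.10) was higher in Sertoli.

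In the FGF list, 9 of 17 tested genes were higher in Interstitial and 6 were higher in Sertoli (52.9 and 35.3%), with a median log2 difference of 0.46. The ligand Fgf9, which supports the male pathway, had 53.5, 54.3 and 53.8 CPM in the Sertoli libraries and 10.5, 10.5 and 11.9 CPM in the Interstitial libraries (log2 difference -2.36, SE 0.10, adjusted p = 1.96e-07), and Fgf13 (-3.47) and Fgf18 (-1.71) were also higher in Sertoli. The receptor Fgfr1 had 120, 124 and 114 CPM in the Interstitial libraries and 32.3, 35.4 and 33.4 CPM in the Sertoli libraries (log2 difference 1.85, SE 0.08, adjusted p = 1.9e-07), and the ligand Fgf10 (1.88) was higher in Interstitial. Spry1 (1.13) and Spry4 (-1.44), feedback inhibitors of the same family, differed in opposite directions. In the Notch list, 7 of 18 tested genes were higher in Interstitial and 6 were higher in Sertoli (38.9 and 33.3%), with a median log2 difference of 0.14. Notch2 had 453, 492 and 441 CPM in the Sertoli libraries and 277, 270 and 259 CPM in the Interstitial libraries (log2 difference -0.79, SE 0.07, adjusted p = 1.58e-05), and the target Hes5 had 7.54, 7.62 and 7.61 CPM in the Sertoli libraries and 0.904, 0.921 and 0.787 CPM in the Interstitial libraries (log2 difference -3.05, SE 0.18, adjusted p = 1.53e-06). The vascular members Dll4 (1.99), Notch3 (0.78) and Notch4 (1.45) were higher in Interstitial.

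In the TGF-beta, activin and BMP list, 13 of 34 tested genes were higher in Interstitial and 13 were higher in Sertoli (38.2 and 38.2%), with a median log2 difference of 0.17. Besides Amh, Inhbb, Inha and Amhr2, Sertoli held more of the activin receptor Acvr1b, with 68.2, 71 and 67.8 CPM in the Sertoli libraries and 30.6, 32.8 and 31.7 CPM in the Interstitial libraries (log2 difference -1.14, SE 0.07, adjusted p = 2.12e-06). Tgfb2 (2.36), Bmp4 (2.11), Gdf10 (4.13), the receptor Tgfbr2 (1.23) and the BMP antagonist Chrd (2.21) were higher in Interstitial. Bmpr1a, the BMP receptor, did not pass (log2 difference -0.05, SE 0.05, adjusted p = 0.453).

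In the fibrillar matrix list, 20 of 29 tested genes were higher in Interstitial and 3 were higher in Sertoli (69 and 10.3%), with a median log2 difference of 0.97. Col1a1, a chain of type I collagen, had 437, 381 and 359 CPM in Interstitial A, B and C and 39.7, 37.1 and 35.8 CPM in Sertoli A, B and C (log2 difference 3.41, SE 0.09, adjusted p = 2.18e-08), and Col3a1 had 1541, 1373 and 1438 CPM in the Interstitial libraries and 556, 572 and 537 CPM in the Sertoli libraries (log2 difference 1.37, SE 0.09, adjusted p = 2.13e-06). Fn1, which encodes fibronectin, had 435, 461 and 430 CPM in the Interstitial libraries and 75.6, 74 and 70.7 CPM in the Sertoli libraries (log2 difference 2.58, SE 0.06, adjusted p = 1.3e-08). The small proteoglycans Dcn (3.64) and Fmod (3.54) were higher in Interstitial. Fbln2 (920, 1016 and 864 CPM in the Sertoli libraries and 106, 112 and 102 CPM in the Interstitial libraries, log2 difference -3.15, SE 0.08, adjusted p = 1.58e-08), Col14a1 (-2.58) and Vcan (-0.29) were the members higher in Sertoli. Vcan was not called without Sertoli B (-0.25) or Interstitial B (-0.12), or with scaling by library size alone (-0.13).

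In the basement membrane list, 10 of 22 tested genes were higher in Interstitial and 9 were higher in Sertoli (45.5 and 40.9%), with a median log2 difference of -0.03. The type IV collagen pair Col4a1 and Col4a2 was higher in Sertoli (-1.14 and -1.20), while Col4a4 (1.59) and Col4a6 (1.90) were higher in Interstitial. Col4a1 had 1513, 1611 and 1465 CPM in the Sertoli libraries and 716, 699 and 647 CPM in the Interstitial libraries (log2 difference -1.14, SE 0.10, adjusted p = 1.58e-05). The linker Nid1 was higher in Sertoli (-0.76) and its relative Nid2 in Interstitial, with 195, 193 and 185 CPM in the Interstitial libraries and 34.1, 33.7 and 33.2 CPM in the Sertoli libraries (log2 difference 2.52, SE 0.06, adjusted p = 1.16e-08). The laminin chains Lama4 (-1.61) and Lamb2 (-0.99) were higher in Sertoli, and Lama5 (1.40) and Lamc3 (1.74) in Interstitial. Lamb1 (log2 difference -0.07, SE 0.06, adjusted p = 0.338) and Lamc1 (log2 difference -0.11, SE 0.06, adjusted p = 0.119) did not pass.

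In the epithelial junction list, 13 of 26 tested genes were higher in Interstitial and 12 were higher in Sertoli (50 and 46.2%), with a median log2 difference of 0.01. Cldn11, a claudin of the later blood-testis barrier, had 62.1, 55.8 and 59.2 CPM in the Sertoli libraries and 6.35, 4.89 and 6.27 CPM in the Interstitial libraries (log2 difference -3.38, SE 0.13, adjusted p = 1.14e-07), and the connexins Gjb2 (-4.58) and Gja1 (-2.64) and the desmosome protein Dsp (-2.21) were higher in Sertoli. Cdh1, the E-cadherin gene, had 40, 48.7 and 41.5 CPM in the Interstitial libraries and 4.91, 4.61 and 4.79 CPM in the Sertoli libraries (log2 difference 3.22, SE 0.44, adjusted p = 0.00025), and Cldn4 (4.32), Cldn7 (3.92) and Crb2 (3.07) were higher in Interstitial. Cdh1 and Epcam, which the mesonephric tubule list holds, moved with these claudins, and the part of that tissue was not tested. In the protease and inhibitor list, 8 of 27 tested genes were higher in Interstitial and 17 were higher in Sertoli (29.6 and 63%), with a median log2 difference of -0.47. Adamts16 had 530, 586 and 538 CPM in the Sertoli libraries and 20.1, 25.7 and 22.4 CPM in the Interstitial libraries (log2 difference -4.61, SE 0.13, adjusted p = 2.4e-08), and the serpin Serpine2 had 375, 382 and 377 CPM in the Sertoli libraries and 26, 27.8 and 26.2 CPM in the Interstitial libraries (log2 difference -3.82, SE 0.08, adjusted p = 6.34e-09). Mmp15 (-2.60), Adamts9 (-2.68) and the cystatin Cst3 (-2.25) were higher in Sertoli, and Timp2 (1.29) and Plau (0.74) in Interstitial.

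Hox genes, which record position along the body axis, were higher in Interstitial in all 4 clusters. In that list, 29 of 31 tested genes were higher in Interstitial and 1 were higher in Sertoli (93.5 and 3.23%), with a median log2 difference of 3.07, and the list summed to 327 to 355 CPM in the Interstitial libraries and 112 to 118 CPM in the Sertoli libraries. Hoxd3 had the highest level, with 81, 75 and 73.2 CPM in the Interstitial libraries and 24.1, 24.7 and 24.8 CPM in the Sertoli libraries (log2 difference 1.68, SE 0.10, adjusted p = 1.82e-06). Hoxc5 had 24.1, 21.8 and 21.5 CPM in the Interstitial libraries and 3.32, 3.4 and 3.15 CPM in the Sertoli libraries (log2 difference 2.77, SE 0.13, adjusted p = 4.25e-07) and Hoxa3 had 8.33, 7.54 and 8.54 CPM in the Interstitial libraries and 0.924, 0.874 and 0.553 CPM in the Sertoli libraries (log2 difference 3.14, SE 0.19, adjusted p = 1.61e-06). The libraries of the populations did not overlap for these 3. Hoxb9 went the other way, with 16.5, 19.8 and 16 CPM in the Sertoli libraries and 3.74, 4.23 and 3.47 CPM in the Interstitial libraries (log2 difference -2.19, SE 0.14, adjusted p = 2.1e-06). Hoxb7 of the same cluster differed by 2.64. Hoxd10 did not pass (log2 difference 0.12, SE 0.16, adjusted p = 0.556). Hoxb8 had 53 reads in Interstitial A and B and 1 read in Sertoli A and B, a ratio of 47.5 (95% exact interval 8.17 to 1912). Its fitted difference was 5.26, and 4.38 without Sertoli A and 7.64 without Sertoli B. The mesonephric tubule and macrophage lists were also higher in Interstitial. In the Leydig libraries the Hox list summed to 335 to 395 CPM. There the mesonephric tubule list summed to 136 to 160 CPM and the macrophage and leukocyte list to 28.1 to 44.8 CPM. The part of these 2 lists in the Hox values was not tested.

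**Figure D5:**
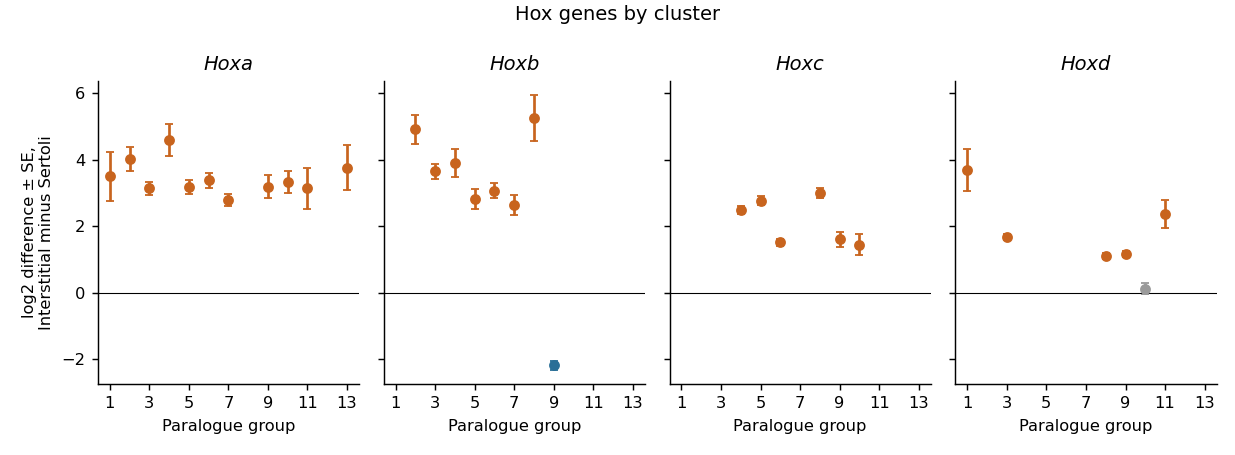
Log2 difference ± SE (Interstitial minus Sertoli) of the 31 Hox genes tested, by cluster and paralogue group. Orange points passed the test and are higher in Interstitial (29 genes), the blue point is Hoxb9, which is higher in Sertoli, and the grey point is Hoxd10, which did not pass.

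Cell cycle genes were higher in Interstitial by small factors. In that list, 20 of 30 tested genes were higher in Interstitial and 6 were higher in Sertoli (66.7 and 20%), with a median log2 difference of 0.49. The replication gene Mcm2 had 239, 257 and 235 CPM in the Interstitial libraries and 120, 119 and 114 CPM in the Sertoli libraries (log2 difference 1.05, SE 0.06, adjusted p = 1.67e-06), all Mcm genes listed from Mcm2 to Mcm7 were higher in Interstitial, and Ccne1, cyclin E, differed by 1.75. The inhibitors Cdkn1b (-0.95) and Cdkn1c (-0.81) were higher in Sertoli. The mitotic genes Plk1 (log2 difference -0.13, SE 0.07, adjusted p = 0.157) and Aurkb (log2 difference -0.11, SE 0.08, adjusted p = 0.288) did not pass. The erythroid and germ cell lists moved in the same direction as the cycle genes, and their part was not tested.

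Glycolytic enzymes lay towards Sertoli. In that list, 2 of 20 tested genes were higher in Interstitial and 10 were higher in Sertoli (10 and 50%), with a median log2 difference of -0.44. With scaling by library size alone, 5 were higher in Interstitial. Ldhb, a lactate dehydrogenase chain, had 752, 717 and 726 CPM in the Sertoli libraries and 139, 137 and 129 CPM in the Interstitial libraries (log2 difference -2.41, SE 0.06, adjusted p = 1.66e-08), and Aldoa had 695, 586 and 603 CPM in the Sertoli libraries and 281, 284 and 256 CPM in the Interstitial libraries (log2 difference -1.18, SE 0.09, adjusted p = 6.29e-06). Hk1 (-1.62), Eno1 (-1.18) and Ldha (-1.08) were higher in Sertoli, while the glucose carrier Slc2a3 (1.59) and the lactate carrier Slc16a1 (0.52) were higher in Interstitial. In the cholesterol list, 9 of 22 tested genes were higher in Interstitial and 5 were higher in Sertoli (40.9 and 22.7%), with a median log2 difference of 0.08. The synthesis genes Fdft1 (0.88) and Sqle (0.84) were higher in Interstitial, and the uptake, storage and export genes Scarb1 (-1.66), Soat1 (-0.91) and Abca1 (-1.15) in Sertoli. Without Sertoli A, 5 cholesterol genes were called towards Interstitial.

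Among imprinted genes, 11 of 22 tested genes were higher in Interstitial and 5 were higher in Sertoli (50 and 22.7%), with a median log2 difference of 0.26. The growth factor gene Igf2 had 743, 578 and 639 CPM in the Interstitial libraries and 214, 212 and 196 CPM in the Sertoli libraries (log2 difference 1.63, SE 0.11, adjusted p = 4.32e-06), and H19, its neighbour, had 1712, 1483 and 1576 CPM in the Interstitial libraries and 702, 686 and 684 CPM in the Sertoli libraries (log2 difference 1.20, SE 0.10, adjusted p = 1.29e-05). Plagl1 (1.71) and Mest (0.91) were also higher in Interstitial, and Peg10 (-0.60) and Magel2 (-1.22) in Sertoli. Without Interstitial B, or with scaling by library size alone, 3 imprinted genes were called towards Sertoli. Of the immediate early and heat shock genes, which respond to tissue handling, 4 of 25 tested genes were higher in Interstitial and 8 were higher in Sertoli (16 and 32%), with a median log2 difference of -0.39. Pools of both populations overlapped for Fos, with 112, 196 and 137 CPM in Interstitial A, B and C and 177, 242 and 201 CPM in Sertoli A, B and C (log2 difference -0.44, SE 0.29, adjusted p = 0.212), and pool B was the higher in both. Fos was called without Interstitial B (-0.84, adjusted p = 0.0381) and with no low-count filter (-0.39, adjusted p = 0.00455). Calls towards Sertoli in this list were 4 without Sertoli B and 5 without Interstitial A, and those towards Interstitial were 2 without Sertoli A or Interstitial B. Hspb1 (-2.27) and the chaperone Hspa5 (-0.83) were higher in Sertoli and Hsp90aa1 (1.07) in Interstitial.

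Among sex-linked genes, Xist differed between the Interstitial pools. Xist, the non-coding RNA made from the inactive X chromosome, had 117, 7.11 and 87.6 CPM in the Interstitial libraries and 29.9, 17.2 and 28.2 CPM in the Sertoli libraries (log2 difference 1.40, SE 0.89, adjusted p = 0.201). Interstitial A and C lay above all Sertoli libraries and Interstitial B lay below them. Without Interstitial A the difference was -1.67 (adjusted p = 0.00327), and without Interstitial B it was 2.37 (adjusted p = 0.000138). Gonads had been sexed before sorting, and the source of the Xist reads was not tested. On the Y chromosome, Sry, the testis-determining gene, had 0.953, 1.14 and 1.05 CPM in the Sertoli libraries and 0.0489, 0.0288 and 0.0246 CPM in the Interstitial libraries, with 71 reads in Sertoli A and B and 3 in Interstitial A and B, a ratio of 26.4 (95% exact interval 8.67 to 131). Ddx3y (-0.77), Kdm5d (-0.71) and Uty (-0.80) were also higher in Sertoli. Uba1y (2.88), Zfy1, Zfy2 and Usp9y were higher in Interstitial. In the sex-linked list, 4 of 10 tested genes were thus higher in Interstitial and 4 were higher in Sertoli (40 and 40%). Over all genes tested the shares were 32.7 and 29.1%, and the list was not tested against them. Usp9y was not called without Sertoli A (1.93). Zfy2 differed by 2.81 without Sertoli A and by 4.74 without Sertoli B.

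Among called genes with a mean of at least 20 CPM in Sertoli, 387 were at least 4-fold higher there. In equal steps from 2 to 2.5 log2 units up to 4.5 to 5, these numbered 129, 82, 56, 40, 48 and 28. A further 4 were higher by at least 5. Among called genes with a mean of at least 20 CPM in Interstitial, 168 were at least 4-fold higher there. In the same steps these numbered 49, 36, 51, 10, 7 and 4, and a further 11 were higher by at least 5. Each gene entered through its level in the population where it was higher, so the 2 sets were filtered differently. Without this filter, 5.11% of all genes tested were called at least 4-fold higher in Sertoli and 8.54% in Interstitial. The difference between these spreads was not tested.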

How the data were processed

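Per the labels' protocols, total RNA from CD31-stained sorted cells was made into stranded, ribosome-depleted libraries and read over 4 lanes. Per the submitters' processing notes, TopHat2 2.0.6, HTSeq and limma were used with the mm10 build, and neither their settings nor the use of strand in counting is given in the sources used here. The deposited counts per gene and lane were summed here per library. Reads outside genes (no feature) were 32.23 to 36% of the reads in these 6 libraries, and ambiguous reads 0.62 to 0.77%. Both stayed out of library sizes. The authors' deposited table of Interstitial against Sertoli gives log2 fold changes, log2 mean expression, p-values, adjusted p-values and scores (test statistics, log odds) for 3512 genes and was used for comparison alone.

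Pools A and B of all 3 populations (6 libraries, 3 residual degrees of freedom) were fitted with edgeR 4.0.16 (R 4.3.3), with TMM scaling, filterByExpr and the quasi-likelihood test, and the contrast Interstitial minus Sertoli was adjusted by Benjamini-Hochberg over 18048 of 38560 genes. The Leydig pools thereby shared the estimate of spread (common biological coefficient of variation 0.0871). C libraries were put on the same scale and not tested. Gene names and positions came from GENCODE M21 (GRCm38), which named 36722 genes, and exon unions gave lengths. Alternatives were other scalings and filters, DESeq2 1.42.0, limma 3.58.1 (voom), other sets of libraries or lanes, a replicate block and leaving out each pool.

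Genes were named by 3 rules: the 12 largest log2 differences in each direction among called genes with at least 5 CPM and no overlap between libraries, the 8 largest differences in mean CPM in each direction without mitochondrial genes, and members of 30 gene lists. The comparison and the lists were chosen with earlier results of these data known. Ahsp, Pals1, Kcnq1ot1, Snrpn, Zac1 and Hoxd4 were not matched by name. A few genes that the rules select are not reported here.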

Additional observations from a re-analysis of the deposited data

How the results depend on the processing

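Of 511 called genes among the 610 that the lists and the naming rules hold, 444 were called in the same direction under each of the 16 alternatives that tested them, and 67 were not called under at least 1. The number of genes at least 4-fold higher in Interstitial was 1542, and 1020 with a filter at 1 CPM, which tested 15245 genes. The share of calls higher in Interstitial was 52.9%, and 65.2% with scaling by library size alone. Other scalings moved the median of all genes by less than 0.1. DESeq2 called 5110 genes higher in Interstitial and 5029 higher in Sertoli, limma voom 5878 and 5267, and the fit of all 9 libraries 7490 and 5575. Leaving out each pool gave 4826 to 5559 genes higher in Interstitial and 4104 to 4596 higher in Sertoli, with the lone pool assumed to vary like the others. The Xist difference ran from -1.67 without Interstitial replicate A to 2.37 without Interstitial replicate B, and the cause was not tested.

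A replicate block, which takes pool letters as pairs, called 6336 and 5677 genes. In the immediate early and heat shock list it called 17 genes higher in Sertoli, against 8 without it, among them Fos (-0.48, adjusted p = 0.000466). It also called Atf3 (0.56) and Egr3 (0.77) higher in Interstitial, which the main fit did not. The deviations of same-lettered pools correlated with r = 0.1 over genes for Sertoli and Interstitial, 0.018 for Sertoli and Leydig and 0.248 for Interstitial and Leydig, and nothing in the labels says that a letter marks shared litters or days. With 2 pools per population, counts of a few reads limit single genes more than abundant ones.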

Other observations

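By gene class, 5418 of 15174 protein-coding genes tested were higher in Interstitial (35.7%) and 4797 were higher in Sertoli (31.6%). Small nucleolar RNAs guide modification of ribosomal RNA and often lie within introns of other genes. Of 210 such genes tested, 33 were higher in Interstitial (15.7%) and 5 in Sertoli (2.38%), with a median log2 difference of 0.33. Of 425 long intergenic non-coding RNA genes, 111 were higher in Interstitial (26.1%) and 84 in Sertoli (19.8%). Of 402 antisense genes, 64 were higher in Interstitial (15.9%) and 85 in Sertoli (21.1%). Without a stated strand setting, their reads and those of the overlapping genes cannot be told apart. Over all genes tested the shares were 32.7 and 29.1%, so small nucleolar, intergenic and antisense genes were called less often in either direction.

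By chromosome, the X held 717 tested genes, of which 33.6% were higher in Interstitial and 35.8% in Sertoli, with a median of -0.06. On the autosomes the share higher in Sertoli ran from 24.4% on chromosome 12 to 32.5% on chromosome 9. Chromosome 11, with 1461 genes tested and the alpha globin and Hoxb genes on it, had 35.6% higher in Interstitial and 26.5% in Sertoli.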
